A study of Homo sapiens with 16 samples.

Results

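Toll-like receptors are membrane sensors of microbial and damage-associated molecules, and most of them signal through the adaptor MYD88. The gene set described here held 10 members, chosen by symbol as the receptors TLR1, TLR2, TLR3, TLR4, TLR5 and TLR6, the lipopolysaccharide co-receptor CD14, the adaptor MYD88 and the kinases IRAK1 and IRAK2. All 10 were matched to an Ensembl identifier among the 57820 genes counted, and all 10 were tested in both serum conditions. They were measured by bulk RNA-Seq in sublines of MDA-MB-231 and MDA-MB-436, mesenchymal triple-negative breast cancer cell lines.

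Both lines were stably transfected with the 7TGP reporter, in which Tcf/Lef binding sites drive eGFP, and were selected with puromycin. Repeated sorting by eGFP then gave a reporter-negative (7TGP-NEG) and a reporter-positive (7TGP-POS) subline of each, so that the controls carry the reporter too and each subline is a single sorted population. Cells were harvested in low serum (0.5% FBS, day 3) or standard serum (10% FBS, day 6), and each of the 8 groups held 2 biological replicates, 16 libraries in all. Serum and day changed together, and according to the methods library chemistry and sequencer changed with them (the labels name the same stranded mRNA kit for all libraries), so levels in the 2 serum conditions are given side by side and were not compared. The methods give DMEM/F-12 for MDA-MB-231 and RPMI-1640 for MDA-MB-436, while the labels name DMEM for both, and if the media differed, line and medium cannot be told apart.

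Libraries held between 27918418 and 46044073 counts, and replicates of a group differed by more than counting noise, so none was counted as a duplicate. Of 5 mesenchymal markers, VIM (19591 to 182829 counts), ZEB1 (1032 to 4592), FN1 (3879 to 58542) and AXL (2328 to 54866) were well counted in all 16 libraries, and SPARC was low (18 to 321). Of 3 epithelial markers, CDH1 stayed at or below 12 counts, whereas EPCAM had 44 to 270 and ESRP1 9 to 57. VIM was lower in 7TGP-POS of MDA-MB-231, at 2328 against 4861 CPM (counts per 1000000 counts of the library) in low serum. There ZEB1 (138 against 150 CPM), FN1 (1176 against 1210) and AXL (1387 against 1400) differed little, and SPARC was higher (1.41 against 1.14). In standard serum FN1 was lower in that subline as well (354 against 1500 CPM). In MDA-MB-436 7TGP-POS in low serum, VIM (759 against 672 CPM) and FN1 (362 against 139 CPM) were higher. So were AXL (200 against 140 CPM) and SPARC (10.3 against 1.29 CPM), and ZEB1 was lower (39.0 against 44.5 CPM). Toll-like receptors are best known from macrophages, so a list of 10 myeloid genes was examined in the same libraries. Of its members, AIF1, TYROBP, SPI1, MS4A7 and FCER1G reached at most 2, 1, 4, 3 and 7 counts. PTPRC, LYZ, ITGAM, CSF1R and CD163 reached 334, 261, 147, 104 and 35. Between 3 and 5 of the 10 genes exceeded 3 counts in each library. The summed level of the list ran from 7.22 to 15.3 TPM in MDA-MB-231 and from 1.41 to 4.15 TPM in MDA-MB-436. This sum was lower in 7TGP-POS than in 7TGP-NEG in both lines and both serum conditions, but single genes differed in direction. PTPRC, which encodes CD45, was higher in 7TGP-POS of MDA-MB-231 (4.22 against 1.93 CPM in low serum, 9.23 against 7.10 CPM in standard serum), and LYZ was lower (4.24 against 8.35 CPM and 1.65 against 4.61 CPM). In CPM the sums of MDA-MB-231 in standard serum lay close together, at 11.4 and 11.6 in 7TGP-POS and 11.8 and 12.4 in 7TGP-NEG. The part of these genes in the results below was not tested.

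TLR2 pairs with TLR1 or TLR6 to sense bacterial lipopeptides, TLR4 senses lipopolysaccharide together with CD14 and the soluble protein MD-2, TLR5 senses flagellin, and TLR3 senses double-stranded RNA in endosomes. On ligand binding, all of these except TLR3 recruit MYD88, which assembles IRAK kinases into the Myddosome and leads to NF-κB activation. TLR3 uses the adaptor TICAM1 and leads mainly to interferon genes, and TLR4 can use both routes. In epithelial tumours these receptors are known as inducers of inflammatory cytokines.

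Genes were tested within each serum condition with edgeR's quasi-likelihood test, and a gene is called different here when its Benjamini-Hochberg adjusted p is under 0.05 and its absolute log2 fold change is at least 1. Levels are CPM as mean ± SD of 2 libraries, and levels of different genes are compared only by the deposited TPM values, which allow for gene length. A group is called at the floor when each of its libraries holds 3 counts or fewer. In these bulk samples, fewer expressing cells and less RNA per cell cannot be told apart.

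In MDA-MB-231 the reporter-positive subline had more TLR2 in both serum conditions and more TLR3 in standard serum, with little difference in TLR4. In MDA-MB-436 it had more TLR4 in both serum conditions, and TLR2 was counted in it while the 7TGP-NEG subline had no TLR2 count at all. MYD88 changed little in any comparison, and IRAK1 and IRAK2 differed more between the lines than between sublines.

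**Figure D1:**
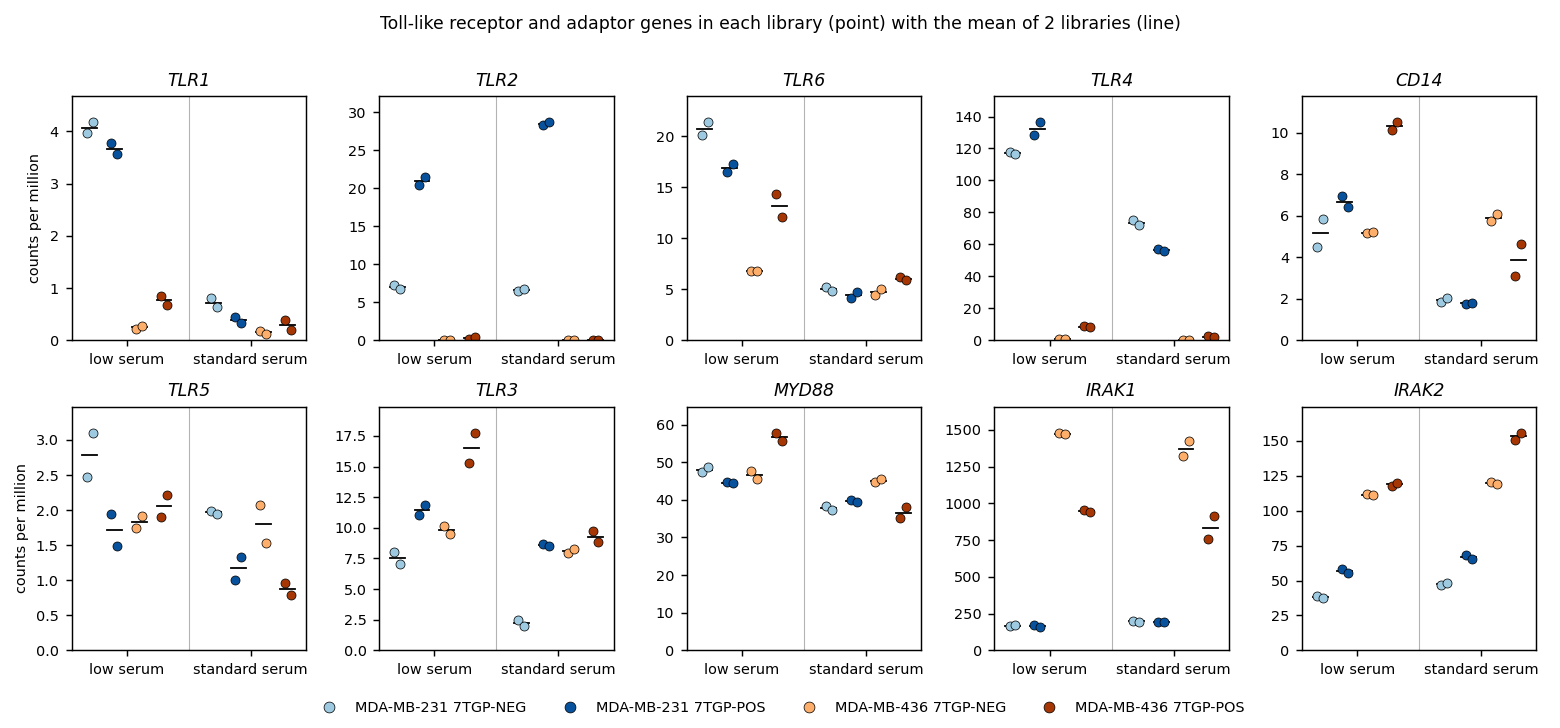
Level of each of the 10 genes in CPM (vertical axis, linear, a separate scale for each panel) in all 16 libraries, grouped by serum condition and coloured by line and subline, with a line at the mean of 2 libraries. TLR2 and TLR4 are near 0 in MDA-MB-436 on the scale set by MDA-MB-231, and IRAK1 shows the opposite order.

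The promoters of the receptors that differed most between sublines, and that of MYD88 for contrast, are shown because the sublines were sorted on Tcf/Lef reporter activity. They are the 250 bases before the annotated start from RefSeq on GRCh38.p14, in lower case and read on the gene's strand, with matches to the motifs searched in capitals. RefSeq entries were found for 9 of the 10 genes, all but TLR1.
TLR2, chr4:153684030-153684279, plus strand: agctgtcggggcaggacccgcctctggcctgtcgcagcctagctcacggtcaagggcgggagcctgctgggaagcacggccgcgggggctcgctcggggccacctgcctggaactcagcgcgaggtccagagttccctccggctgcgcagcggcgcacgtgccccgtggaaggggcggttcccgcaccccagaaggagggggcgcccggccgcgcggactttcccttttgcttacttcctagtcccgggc
TLR4, chr9:117704153-117704402, plus strand: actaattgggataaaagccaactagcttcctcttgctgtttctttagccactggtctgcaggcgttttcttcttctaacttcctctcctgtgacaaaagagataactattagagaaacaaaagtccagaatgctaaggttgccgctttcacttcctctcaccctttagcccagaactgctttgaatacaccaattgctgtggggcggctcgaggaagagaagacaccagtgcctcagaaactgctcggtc
TLR3, chr4:186068906-186069155, plus strand: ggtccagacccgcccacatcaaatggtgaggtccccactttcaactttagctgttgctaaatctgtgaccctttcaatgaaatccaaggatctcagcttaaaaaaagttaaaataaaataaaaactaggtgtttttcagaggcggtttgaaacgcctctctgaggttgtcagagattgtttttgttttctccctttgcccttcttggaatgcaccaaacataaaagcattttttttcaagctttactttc
MYD88, chr3:38138411-38138660, plus strand: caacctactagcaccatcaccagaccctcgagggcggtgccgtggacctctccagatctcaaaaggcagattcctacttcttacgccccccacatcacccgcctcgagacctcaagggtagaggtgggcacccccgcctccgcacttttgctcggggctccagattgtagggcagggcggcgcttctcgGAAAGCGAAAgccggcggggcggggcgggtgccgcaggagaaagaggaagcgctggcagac

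The letters ATCAAAG, the core of a Tcf/Lef site, were searched on both strands together with a pattern of interferon-response elements, 2 copies of GAAA with 2 bases between them, and the NF-κB consensus. None of the 9 windows held ATCAAAG, which was found in 2.26% of the 35116 RefSeq promoters of the same length. MYD88 held the interferon-response pattern between 61 and 52 bases before its start, a pattern found in 3.02% of all windows. IRAK1 held the NF-κB consensus, a palindromic match read on both strands between 114 and 105 bases before its start, and 9.96% of all windows held that consensus. TLR2, TLR3 and TLR4 held no match to any of the 3 patterns in this window. The TLR2 window was 72.4% G or C and the TLR3 and TLR4 windows 39.2% and 46.4%, against a median of 58.0% over all promoters.

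TLR2 (ENSG00000137462, chromosome 4, 154605222 to 154627412 on GRCh37, plus strand) showed the same order of the 4 groups in both serum conditions. In low serum, its counts were 223 and 201 in MDA-MB-231 7TGP-NEG, 610 and 609 in MDA-MB-231 7TGP-POS, 0 and 0 in MDA-MB-436 7TGP-NEG, and 6 and 10 in MDA-MB-436 7TGP-POS. The counts in standard serum were 237 and 214, 957 and 1028, 0 and 0, and 4 and 3 in the same order of groups. Both MDA-MB-231 7TGP-POS libraries were above both 7TGP-NEG libraries, and all 8 MDA-MB-231 libraries were far above the MDA-MB-436 libraries. The level in MDA-MB-231 went from 6.99 ± 0.40 to 20.9 ± 0.77 CPM in low serum (log2 fold change 1.59, SE 0.11, edgeR adjusted p = 2.5e-15). It went from 6.63 ± 0.13 to 28.5 ± 0.21 CPM in standard serum (log2 fold change 2.05, SE 0.11, edgeR adjusted p = 3.56e-10). Per length, TLR2 in MDA-MB-231 7TGP-POS reached 10.8 TPM in low serum and 25.2 TPM in standard serum.

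TLR2 in MDA-MB-436 rests on few reads. No read was counted in the 4 MDA-MB-436 7TGP-NEG libraries, against 16 counts over the 2 7TGP-POS libraries in low serum and 7 counts in standard serum. With 7TGP-NEG set at 3 counts per library, the observed TLR2 level was at least 2.79-fold higher in 7TGP-POS in low serum and at least 1.02-fold higher in standard serum. These bounds make no allowance for counting error in 7TGP-POS. TLR2 was called in both (edgeR adjusted p = 1.14e-04 and 0.00885), although its fitted log2 fold changes of 5.97 and 4.58 depend on the prior count and are no measure of size. In standard serum TLR2 passed the filter of 10 counts through the MDA-MB-231 libraries, since the 7 counts of MDA-MB-436 alone would not have sufficed. In standard serum the call was lost without either 7TGP-NEG library (adjusted p = 0.0565 without replicate 1 and 0.0756 without replicate 2), and TPM called it in neither serum condition. Between the 7TGP-NEG sublines, TLR2 was at least 71.1-fold higher in MDA-MB-231 than in MDA-MB-436 in low serum and at least 80.2-fold higher in standard serum.

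TLR1 and TLR6, the partners of TLR2, share a stretch of chromosome 4 (TLR1, ENSG00000174125, 38792298 to 38858438, and TLR6, ENSG00000174130, 38824518 to 38858438, minus strand, GRCh37). They are close paralogs, and the annotated model of TLR6 lies within that of TLR1 on the same strand. The division of reads between them is thus uncertain. In low serum, TLR1 had 122 and 125 counts in MDA-MB-231 7TGP-NEG, 113 and 101 in MDA-MB-231 7TGP-POS, 7 and 8 in MDA-MB-436 7TGP-NEG, and 27 and 19 in MDA-MB-436 7TGP-POS. The counts in standard serum were 29 and 20, 15 and 12, 6 and 5, and 18 and 7. The MDA-MB-436 groups did not overlap in either serum condition, but in standard serum the gap lay within the sum of their SDs. The log2 fold change in MDA-MB-436 was 1.63 in low serum (SE 0.41, edgeR adjusted p = 9.11e-04) and 0.92 in standard serum (SE 0.56, adjusted p = 0.183). On the log2(TPM + 1) scale the low serum value was 0.29, under the fold threshold. In MDA-MB-231 the values for TLR1 were -0.14 (adjusted p = 0.543) and -0.94 (adjusted p = 0.0859), neither of which passed the test.

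TLR6 was counted at 616 and 639 in MDA-MB-231 7TGP-NEG, 492 and 490 in 7TGP-POS, 220 and 195 in MDA-MB-436 7TGP-NEG, and 452 and 338 in 7TGP-POS in low serum. Its order thus ran opposite in the lines, with 7TGP-POS lower in MDA-MB-231 and higher in MDA-MB-436. The log2 fold changes were -0.29 in MDA-MB-231 (SE 0.09, edgeR adjusted p = 0.00846) and 0.96 in MDA-MB-436 (SE 0.11, adjusted p = 5.23e-10), both under the fold threshold. In standard serum the counts were 188 and 152, 138 and 171, 149 and 196, and 283 and 214, and neither line passed the test (adjusted p = 0.281 and 0.100).

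TLR4 (ENSG00000136869, chromosome 9, 120466453 to 120487013 on GRCh37, plus strand) was the best expressed receptor of the set in MDA-MB-231 and among the lowest in MDA-MB-436 7TGP-NEG. In low serum, it had 3605 and 3493 counts in MDA-MB-231 7TGP-NEG, 3848 and 3864 in MDA-MB-231 7TGP-POS, 22 and 15 in MDA-MB-436 7TGP-NEG, and 283 and 224 in MDA-MB-436 7TGP-POS. The counts in standard serum were 2716 and 2295, 1927 and 2011, 6 and 5, and 108 and 68. In MDA-MB-436 every 7TGP-POS library held more than 10 times the counts of any 7TGP-NEG library of the same serum condition. The level in MDA-MB-436 went from 0.599 ± 0.11 to 8.48 ± 0.65 CPM in low serum (log2 fold change 3.80, SE 0.17, edgeR adjusted p = 4.14e-22). In standard serum it went from 0.153 ± 0.035 to 2.11 ± 0.34 CPM, a log2 fold change of 3.73 (SE 0.27, edgeR adjusted p = 2.34e-09). These levels remained well below those of MDA-MB-231, where 7TGP-NEG stood at 117 ± 0.70 CPM in low serum and 73.5 ± 2.0 CPM in standard serum. On the log2(TPM + 1) scale the fold changes of TLR4 in MDA-MB-436 were smaller, at 1.91 and 1.18, and both were still called.

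Within MDA-MB-231, TLR4 moved by small amounts in opposite directions, with a log2 fold change of 0.19 in low serum (SE 0.06, edgeR adjusted p = 0.00662) and -0.43 in standard serum (SE 0.09, adjusted p = 7.97e-04). The low serum value turned to -0.02 on the log2(TPM + 1) scale (adjusted p = 0.960). The 50 tested genes nearest to TLR4 on chromosome 9 had a median log2 fold change of -0.31 in MDA-MB-231 in low serum and -0.38 in standard serum. In MDA-MB-436 the median of these neighbours was -0.10 in low serum and 0.04 in standard serum, and 0 of 50 had a change as large as that of TLR4.

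**Figure D2:**
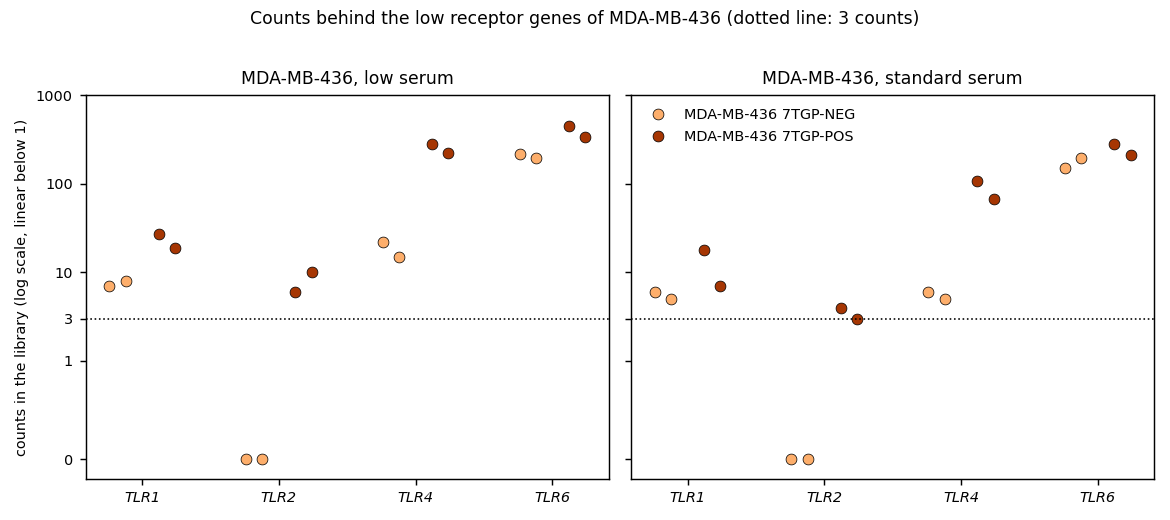
Raw counts (vertical axis, log scale that is linear below 1) of TLR1, TLR2, TLR4 and TLR6 in the 8 MDA-MB-436 libraries, with 2 libraries per subline and a dotted line at 3 counts. TLR2 has 0 counts in every 7TGP-NEG library and 3 to 10 in 7TGP-POS, and TLR4 has 5 to 22 counts in 7TGP-NEG and 68 to 283 in 7TGP-POS.

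CD14 (ENSG00000170458, chromosome 5, 140011313 to 140013285 on GRCh37, minus strand), which hands lipopolysaccharide to TLR4, was counted in every library. In low serum, it had 137 and 175 counts in MDA-MB-231 7TGP-NEG, 208 and 182 in 7TGP-POS, 169 and 149 in MDA-MB-436 7TGP-NEG, and 321 and 293 in 7TGP-POS. In standard serum, its counts were 67 and 65, 59 and 65, 194 and 238, and 143 and 169. In MDA-MB-436 the order of the sublines was thus opposite in the 2 serum conditions. The log2 fold change there was 0.98 in low serum (SE 0.12, edgeR adjusted p = 1.15e-08) and -0.68 in standard serum (SE 0.17, adjusted p = 0.00336), both under the fold threshold. In MDA-MB-231 it was 0.39 (adjusted p = 0.0197) in low serum and -0.18 (adjusted p = 0.595) in standard serum.

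TLR5 (ENSG00000187554, chromosome 1, 223282746 to 223316590 on GRCh37, minus strand) was low in all groups, between 29 and 93 counts. In MDA-MB-231 its counts were 76 and 93 in 7TGP-NEG against 58 and 42 in 7TGP-POS in low serum, and 72 and 62 against 34 and 48 in standard serum. The log2 fold changes were -0.69 (SE 0.21, edgeR adjusted p = 0.00737) and -0.80 (SE 0.25, adjusted p = 0.0186), with both 7TGP-POS libraries below both 7TGP-NEG libraries each time. In MDA-MB-436 its counts were 57 and 55 against 60 and 62 in low serum, and 70 and 60 against 44 and 29 in standard serum. The log2 fold changes were 0.15 (adjusted p = 0.593) and -1.08 (SE 0.25, adjusted p = 0.00174). The last call dropped under the fold threshold without MDA-MB-436 7TGP-NEG replicate 1 (-0.86), without MDA-MB-436 7TGP-POS replicate 2 (-0.95) and on the log2(TPM + 1) scale (-0.50).

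TLR3 (ENSG00000164342, chromosome 4, 186990065 to 187009227 on GRCh37, plus strand) is the receptor of the set that does not use MYD88. In low serum, its counts were 247 and 212 in MDA-MB-231 7TGP-NEG, 331 and 337 in 7TGP-POS, 332 and 271 in MDA-MB-436 7TGP-NEG, and 485 and 496 in 7TGP-POS. In standard serum, they were 89 and 63, 294 and 306, 269 and 325, and 450 and 321. MDA-MB-231 7TGP-NEG was the lowest group in both serum conditions, and the sublines of each line did not overlap in CPM. The log2 fold change in MDA-MB-231 was 0.61 in low serum (SE 0.11, edgeR adjusted p = 1.58e-05) and 1.90 in standard serum (SE 0.15, adjusted p = 2.25e-08). In MDA-MB-436 it was 0.74 in low serum (SE 0.10, adjusted p = 4.95e-08) and 0.14 in standard serum (SE 0.13, adjusted p = 0.402). In standard serum the level of TLR3 was 2.22 ± 0.34 CPM in MDA-MB-231 7TGP-NEG, against 8.62 ± 0.13 CPM in the 7TGP-POS subline of that line and 8.13 ± 0.24 and 9.29 ± 0.68 CPM in the 7TGP-NEG and 7TGP-POS sublines of MDA-MB-436.

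MYD88 (ENSG00000172936, chromosome 3, 38180043 to 38184515 on GRCh37, plus strand) lay between 36.6 and 56.7 CPM in the 8 groups. Its counts ranged from 1184 to 1831 over the 16 libraries. In MDA-MB-231 the log2 fold change was -0.10 in low serum (edgeR adjusted p = 0.228) and 0.02 in standard serum (adjusted p = 0.903), with 95% intervals of -0.21 to 0.02 and -0.14 to 0.18. In MDA-MB-436 it was 0.27 in low serum (SE 0.06, adjusted p = 1.66e-04) and -0.36 in standard serum (SE 0.08, adjusted p = 0.00115). The 50 tested genes of at least 1 CPM nearest to MYD88 had a median log2 fold change of 0.65 in MDA-MB-436 in low serum. It was 0.49 in standard serum, and both medians were above the value of MYD88 itself.

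IRAK1 (ENSG00000184216, chromosome X, 153275957 to 153285353 on GRCh37, minus strand), a kinase of the Myddosome, had the highest level per length of the set in all 8 groups, from 91.0 TPM in MDA-MB-231 7TGP-POS in low serum to 1255 TPM in MDA-MB-436 7TGP-NEG in standard serum. In low serum, it had 4980 and 5111 counts in MDA-MB-231 7TGP-NEG, 5187 and 4600 in 7TGP-POS, 48397 and 42072 in MDA-MB-436 7TGP-NEG, and 30134 and 26261 in 7TGP-POS. In standard serum, its counts were 7179 and 6245, 6463 and 6924, 44703 and 55727, and 34783 and 33315. Every MDA-MB-436 library was above every MDA-MB-231 library, and in MDA-MB-436 the 7TGP-POS libraries were below the 7TGP-NEG libraries in CPM. The log2 fold change in MDA-MB-436 was -0.65 in low serum (SE 0.05, edgeR adjusted p = 1.02e-14) and -0.78 in standard serum (SE 0.08, adjusted p = 4.46e-07). In MDA-MB-231 it was 0.02 (adjusted p = 0.812) and -0.09 (adjusted p = 0.459).

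IRAK2 (ENSG00000134070, chromosome 3, 10206603 to 10285429 on GRCh37, plus strand), the IRAK family member that sustains the signal, was higher in 7TGP-POS of MDA-MB-231 in both serum conditions. In low serum, its counts there were 1186 and 1116 in 7TGP-NEG and 1738 and 1572 in 7TGP-POS, a log2 fold change of 0.59 (SE 0.06, edgeR adjusted p = 3.44e-11). In standard serum, they were 1686 and 1526 against 2307 and 2350, a log2 fold change of 0.45 (SE 0.07, adjusted p = 1.08e-04). In MDA-MB-436 the counts were 3653 and 3190 against 3735 and 3344 in low serum and 4076 and 4653 against 6941 and 5682 in standard serum. The log2 fold changes were 0.08 (adjusted p = 0.210) and 0.30 (SE 0.07, adjusted p = 0.00203).

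**Figure D3:**
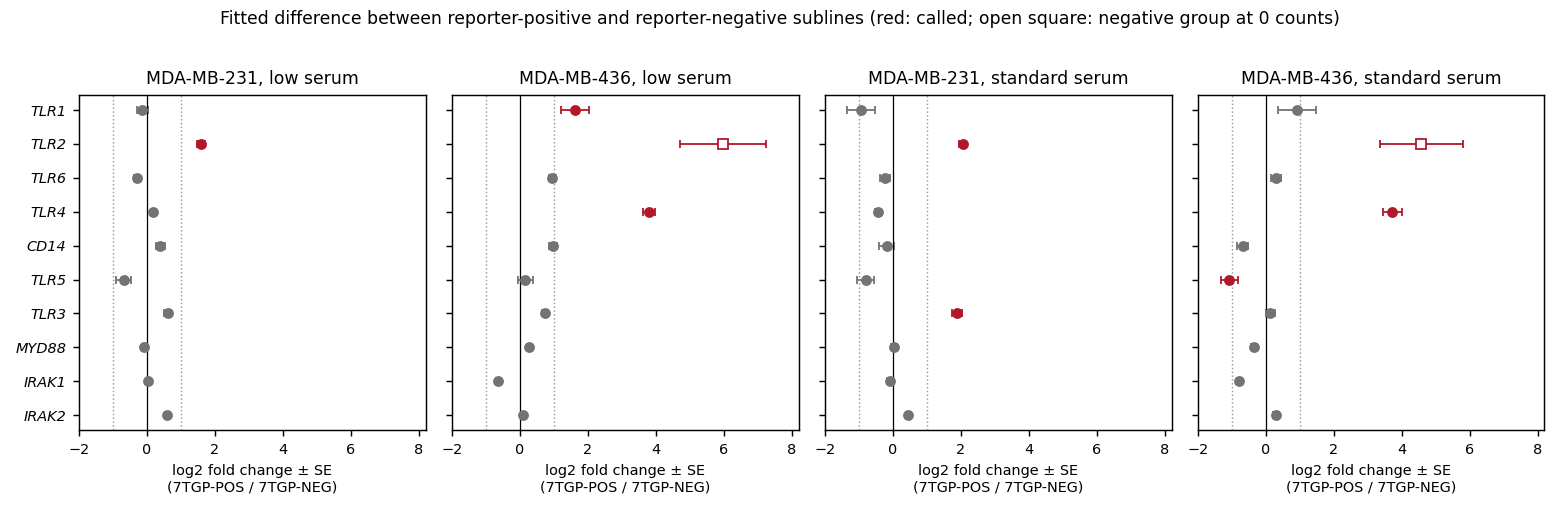
Fitted log2 fold change (horizontal axis, 7TGP-POS over 7TGP-NEG, bars are SE) of the 10 genes in each line and serum condition, with dotted lines at -1 and 1, called genes in red and open squares where the 7TGP-NEG libraries hold 0 counts. TLR4 stands at 3.80 and 3.73 in MDA-MB-436 and at 0.19 and -0.43 in MDA-MB-231, and the open squares of TLR2 are fitted against 0 counts and carry no size.

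Counted over the set, 1 of 10 members was called in MDA-MB-231 in low serum, where 5.9% of the 16069 genes tested were called. In MDA-MB-436 in low serum, 3 of 10 were called, against 10.5% of all genes (6.52% higher and 4.03% lower), and all 3 were higher in 7TGP-POS. In standard serum, 2 of 10 were called in MDA-MB-231, both higher, against 7.69% of the 15414 genes tested (4.96% higher and 2.72% lower). In MDA-MB-436, 3 of 10 were called against 12.5%, with 2 higher and 1 lower against 6.47% and 6.06%. Of these, TLR2 rests on 7 counts against 0 and passed the filter of 10 counts through the MDA-MB-231 libraries. The fold change of TLR5 fell under the threshold without single libraries. The median log2 fold change of the 10 genes in low serum was 0.10 for MDA-MB-231 and 0.85 for MDA-MB-436, and in standard serum it was -0.13 and 0.22, while the medians of all genes lay between -0.01 and 0.01. With the adjusted p alone, 7, 8, 5 and 7 members passed in these 4 comparisons, against 38.9%, 52%, 33% and 49.5% of all genes. The members are few and were not chosen at random, so these counts describe the set and are no test of it.

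Between the 7TGP-NEG sublines, which are the controls of the comparisons above, 6 of 10 members were called in low serum, where 41.9% of all genes were called. Of these, 4 were higher in MDA-MB-231 and 2 lower, against 20.5% and 21.4% of all genes. TLR4 was higher in MDA-MB-231 by a log2 difference of 7.69 (SE 0.11, edgeR adjusted p = 3.8e-40), TLR1 by 4.14 (SE 0.28, adjusted p = 6.31e-17) and TLR6 by 1.72 (SE 0.10, adjusted p = 4.65e-19), and TLR2 was called higher as well. IRAK1 and IRAK2 were lower in MDA-MB-231, with log2 differences of -3.04 (SE 0.05, adjusted p = 2.06e-37) and -1.45 (SE 0.06, adjusted p = 2.18e-25). The receptors of bacterial lipids were thus higher in MDA-MB-231, while these kinases were higher in MDA-MB-436. TLR5 (0.71), MYD88 (0.15) and TLR3 (-0.27) passed the adjusted p only (0.00186, 0.0251 and 0.0256), and CD14 (0.09) did not (adjusted p = 0.542).

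In standard serum, 7 of 10 members were called between the 7TGP-NEG sublines, against 46.7% of all genes, with 3 higher and 4 lower in MDA-MB-231 against 21.3% and 25.4%. TLR2, TLR4 (9.10, SE 0.17, edgeR adjusted p = 1.55e-18) and TLR1 (2.43, SE 0.48, adjusted p = 1.58e-04) were higher in MDA-MB-231. On the log2(TPM + 1) scale the TLR1 difference was 0.50, under the fold threshold. TLR3 (-1.66), CD14 (-1.40), IRAK1 (-2.59) and IRAK2 (-1.14) were lower there, with adjusted p between 4.82e-15 and 2.74e-06. TLR6 (0.29), TLR5 (0.34) and MYD88 (-0.05) did not pass the test. With the adjusted p alone, 9 members passed in low serum and 7 in standard serum, against 79.2% and 78.8% of all genes.

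Genes close to a member on the chromosome show how far a difference between the lines is shared by its region. The 50 tested genes of at least 1 CPM nearest to IRAK1 had a median log2 difference of -1.51 (low serum) and -1.57 (standard serum). Most of these chromosome X genes were thus also lower in MDA-MB-231. Differences as large as that of IRAK1, in either direction, were seen in 14 and 18 of these 50 genes. For TLR4 the medians of the neighbours were -0.33 and -0.43, and 0 of 50 differed as much as TLR4 in either serum condition. For TLR1 the medians of the neighbours were -0.15 and 0.12, and 7 and 11 of 50 differed as much in either direction. Copy number was not measured in these libraries.

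**Figure D4:**
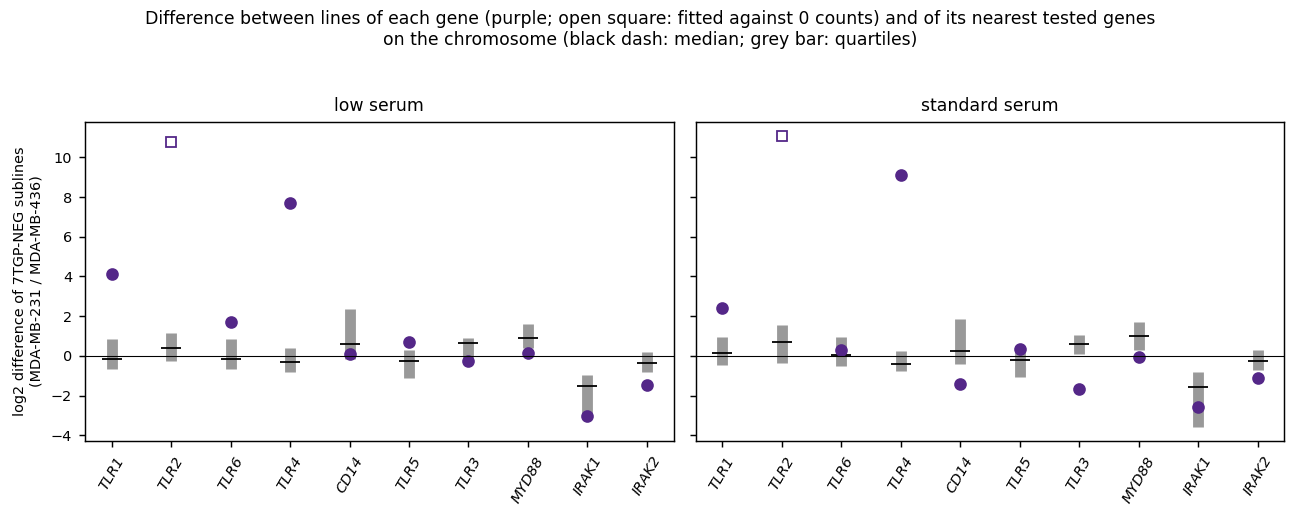
Log2 difference between the 7TGP-NEG sublines (vertical axis, MDA-MB-231 over MDA-MB-436) of each gene (purple), with low serum left and standard serum right. Beside it are the median (black dash) and quartiles (grey bar) of its nearest tested genes of at least 1 CPM. TLR4 lies at 7.69 and 9.10 with neighbours near 0, IRAK1 lies at -3.04 and -2.59 with neighbours at -1.51 and -1.57, and the open squares of TLR2 are fitted against 0 counts.

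The difference between the lines in the effect of reporter status was itself tested, as MDA-MB-231 minus MDA-MB-436. In low serum, 4 of 10 members were called, against 11.7% of all genes, and all 4 were negative, against 7.01% of all genes (4.72% were called positive). TLR4 had an interaction of -3.61 (SE 0.18, edgeR adjusted p = 7.5e-20), TLR1 of -1.77 (SE 0.44, adjusted p = 9.97e-04) and TLR6 of -1.24 (SE 0.14, adjusted p = 7.66e-10), each with the more positive change in MDA-MB-436. On the log2(TPM + 1) scale TLR4 was at -1.93, while TLR1 (-0.52) and TLR6 (-0.99) fell under the fold threshold. TLR2 was called too (adjusted p = 0.0118), but its size and sign depend on how 0 counts are treated. In standard serum, 3 of 10 members were called, against 13.8%, with 2 negative and 1 positive, against 6.81% and 7.02%. TLR4 had an interaction of -4.16 (SE 0.28, adjusted p = 1.81e-09), TLR3 of 1.76 (SE 0.20, adjusted p = 1.47e-06) and TLR1 of -1.86 (SE 0.69, adjusted p = 0.0374). The last was lost with DESeq2 (adjusted p = 0.204) and when any one of 5 libraries was left out. On the log2(TPM + 1) scale TLR4 was at -1.56, and TLR1, at -0.42, fell under the fold threshold. With the adjusted p alone, 9 and 5 members passed, against 45.7% and 41.2% of all genes.

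Per length, the order of the 10 genes differed between the lines. In MDA-MB-231, IRAK1 was followed by TLR4, MYD88 and IRAK2 in an order that differed between groups, with TLR4 at 55.1 TPM in 7TGP-NEG in low serum and 52.6 TPM in standard serum. In MDA-MB-436, IRAK1 was followed by IRAK2, MYD88, CD14 and TLR3 in all 4 groups, with IRAK2 at 97.4 TPM and MYD88 at 35.5 TPM in 7TGP-NEG in low serum. TLR4 there was at 0.35 TPM. TLR1 was among the 3 lowest genes in all 8 groups, between 0.12 and 2.23 TPM.

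Across the 16 libraries, after the mean of each serum condition was removed, the genes most like each member were named by their Pearson correlation of log2(CPM + 1) among 12798 candidates. These points share lines and sublines, so the values describe the pattern only. TLR2 was most like TNFSF15 (r = 0.998), MAGEC1 and SLC16A12 (both r = 0.996), and TLR4 was most like LOX (r = 0.998), IGFBP7 and MFAP2 (both r = 0.997). TLR3 was most like PLXDC2 (r = 0.969), DZIP3 (r = 0.968) and COL4A5 (r = 0.931). MYD88 was most like HELZ2 (r = 0.837), NLRC5 (r = 0.836) and OAS1 (r = 0.819). IRAK1 was most like ADAMTS10, DUSP9 and PHB2 (r = 0.999 for each), of which DUSP9 also lies on chromosome X. IRAK2 was most like TGDS, EN2 and NSMCE3 (r = 0.992 to 0.996). The lowest best values were those of TLR5 with SLC17A5 (r = 0.840) and MYD88. Among the members themselves, TLR4 and IRAK1 ran opposite (r = -0.988) and TLR2 and TLR4 ran together (r = 0.917) over both lines. The mean of each line was not removed, so these values include the gap between the lines. Within MDA-MB-231 the log2 fold changes of TLR2 and TLR4 were 1.59 and 0.19 in low serum. They were 2.05 and -0.43 in standard serum.

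Of 57 other genes of the pathway in 8 lists, 53 were tested. In MDA-MB-231, 11 were called higher and 3 lower in 7TGP-POS in each serum condition, where the backgrounds were 3.5% and 2.4% (low serum) and 4.96% and 2.72% (standard serum) of all genes. In MDA-MB-436, 4 were called in low serum, all of them higher, against 6.52% of all genes called higher. TLR10 is among these 4, at the floor in both groups. In standard serum 5 were higher and 2 lower there, against 6.47% and 6.06%. The 8 lists were chosen with earlier results of these data known, so these counts are no test of them.

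Among the remaining Toll-like receptors, TLR9 was low, with at most 83 counts in MDA-MB-231 and at most 2 in MDA-MB-436. Between the 7TGP-NEG sublines it was called higher in MDA-MB-231, on 9 to 11 against 0 to 2 counts in low serum (edgeR adjusted p = 0.00175) and 22 to 27 against 0 to 1 in standard serum (adjusted p = 0.00247). TLR10 had at most 7 counts in any library. It was called between the 7TGP-NEG sublines on 1 to 7 against 0 counts in low serum and 2 to 3 against 0 in standard serum, the latter at the floor in both groups. It was also called in MDA-MB-436 in low serum on 3 and 3 counts against 0 and 0, at the floor in both groups, so no fold is given. Its MDA-MB-436 counts alone (6 in low serum and 3 in standard serum) would not have passed the filter of 10 counts. TLR10 met that filter through the MDA-MB-231 libraries, as did TLR9, with at most 2 counts in an MDA-MB-436 library. Of the proteins that help the receptors bind or fold, LY96, which encodes MD-2, had 80 to 90 counts in MDA-MB-231 7TGP-NEG and 7 to 12 in MDA-MB-436 7TGP-NEG in low serum, and 227 to 256 against 17 to 22 in standard serum. It was higher in MDA-MB-231 by log2 differences of 3.27 and 3.94, as TLR4 was. LBP, the lipopolysaccharide-binding protein, had 34 to 36 counts in MDA-MB-231 7TGP-NEG and 12 to 16 in 7TGP-POS in low serum (log2 fold change -1.25, edgeR adjusted p = 0.00642). In standard serum LBP had the opposite order in this line, with 31 to 35 counts in 7TGP-NEG and 60 to 68 in 7TGP-POS (log2 fold change 0.86, adjusted p = 0.0211), under the fold threshold. CNPY3, a chaperone of Toll-like receptors, was lower in 7TGP-POS of MDA-MB-231 grown in standard serum (log2 fold change -1.11, adjusted p = 2.12e-09). CD36, a co-receptor of TLR2 with TLR6, was higher in 7TGP-POS of MDA-MB-436 in low serum on 34 to 37 against 12 to 20 counts (log2 fold change 1.18, adjusted p = 0.00316).

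The 4 other TIR adaptors had log2 fold changes between -0.74 and 1.65 in the 4 comparisons, and TICAM2 was the gene past 1 in size, in standard serum (1.30 in MDA-MB-231 and 1.65 in MDA-MB-436, edgeR adjusted p = 0.219 and 0.239) on at most 11 counts in a library. Of 13 other Myddosome kinases and ubiquitin factors, IRAK3, the inactive kinase that restrains the pathway, rose in MDA-MB-231 7TGP-POS in low serum from 447 to 521 counts to 918 to 937 counts (log2 fold change 1.00, adjusted p = 8.57e-15). PELI2, a ubiquitin ligase that acts on IRAK proteins, fell there in both serum conditions (log2 fold changes -1.67 and -2.20, adjusted p = 6.96e-14 and 7.75e-07). In MDA-MB-436 the 13 genes lay between -0.65 and 0.20 in low serum and between -0.74 and 0.77 in standard serum, under the fold threshold. Of 7 inhibitors of the receptor step, TNFAIP3, an NF-κB-induced inhibitor also known as A20, rose in MDA-MB-231 7TGP-POS by 1.21 (low serum) and 1.64 (standard serum) on the log2 scale (adjusted p = 3.24e-19 and 1.61e-11). SIGIRR, a receptor that dampens TLR4 and IL-1 signals, fell there, with log2 fold changes of -1.97 and -1.95 (adjusted p = 1.86e-20 and 0.0117). In the interferon arm, IRF7 was lower in 7TGP-POS of MDA-MB-436 grown in standard serum (log2 fold change -1.16, adjusted p = 0.00471).

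The IL-1 family receptors also signal through MYD88. In MDA-MB-231, IL1RL1, the IL-33 receptor, rose by 1.21 (low serum) and 3.47 (standard serum) on the log2 scale (edgeR adjusted p = 0.00103 and 2.02e-11), and IL1RL2 by 1.22 and 2.59 (adjusted p = 0.0475 and 1.36e-06). IL1R1 and IL18R1 were called higher there in standard serum, with log2 fold changes of 1.24 and 1.85. In MDA-MB-436, IL1RL1 was called in standard serum, on 26 to 39 against 4 to 5 counts (log2 fold change 2.58, adjusted p = 1.29e-05).

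Genes commonly used as readouts of Toll-like receptor signals were called higher in 7TGP-POS in 7 of 10 cases in MDA-MB-231 in low serum and in 6 of 10 in standard serum, against 3.5% and 4.96% of all genes called higher. The list was chosen with earlier results of these data known, so such counts describe it and are no test of it. The neutrophil chemokine CXCL8 had 1546 to 1648 counts in 7TGP-NEG and 19260 to 20678 in 7TGP-POS in low serum (log2 fold change 3.71, SE 0.06, edgeR adjusted p = 4.72e-27). The cytokines IL1B and IL6 rose by 4.05 and 2.85 on the log2 scale, CCL2 by 4.78, CXCL1 by 3.26, PTGS2 by 2.89 and ICAM1 by 1.19, with adjusted p of at most 4.51e-20. In standard serum the same genes except ICAM1 were called, with log2 fold changes from 2.58 for CXCL8 to 4.47 for CCL2. TNF, on 0 and 0 counts in 7TGP-NEG against 1 to 5 in 7TGP-POS, was not called there (adjusted p = 0.0963). In MDA-MB-436, 2 of 10 were called in low serum, CXCL8 (1.46) and CXCL1 (1.40), where 6.52% of all genes were called higher. In standard serum 4 were higher there, CXCL8 (2.43), CXCL1 (1.87), IL6 (1.40) and IL1B (1.28), and PTGS2 was lower (-1.12, adjusted p = 1.87e-08), where 6.47% of all genes were called higher and 6.06% lower. These genes have inducers other than Toll-like receptors, and no ligand or inhibitor of a receptor was applied, so their link to the members was not tested.

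**Figure D5:**
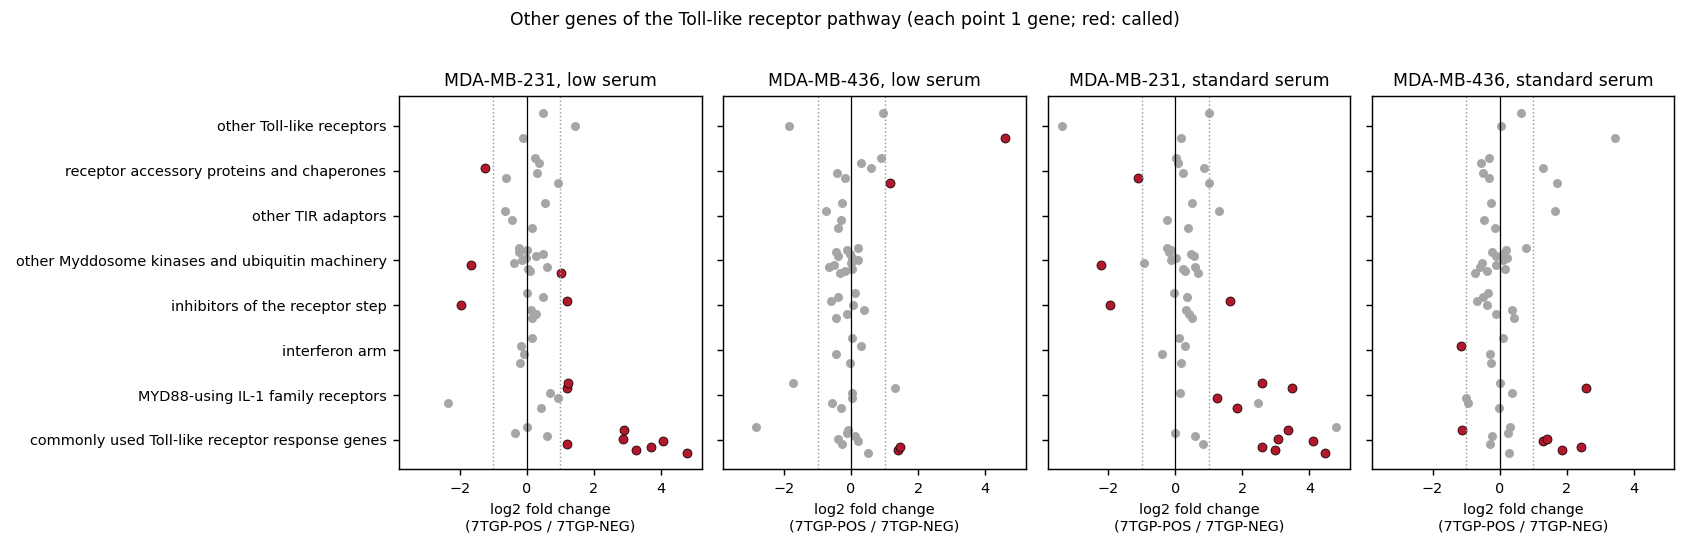
Log2 fold change (horizontal axis, 7TGP-POS over 7TGP-NEG, the same scale in all panels) of the 53 tested genes of the 8 other lists (rows), each point a gene, with called genes in red and dotted lines at -1 and 1. In MDA-MB-231 the called points lie mostly among the response genes and the IL-1 family receptors, and MDA-MB-436 has fewer of them.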

How the data were processed

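RNA-Seq was carried out on 16 libraries, with 2 biological replicates in each of 8 groups taken from the labels. Per the methods, low serum RNA was depleted of ribosomal RNA and sequenced on a HiSeq X, and standard serum RNA was poly(A) selected and sequenced on a NovaSeq, while the labels name TruSeq Stranded mRNA for every library. The authors deposited raw counts per gene, made with STAR on hg19 and Gencode v19 after removal of ribosomal reads with Bowtie. The processing notes give STAR 2.6.1a and edgeR 3.22.5, and the strand setting of the counting is not given in the sources used here. The authors also deposited TPM, without stating how gene length was set. Libraries held between 27918418 and 46044073 counts, and with 2 libraries per group p-values measure the spread between sister cultures of a sorted subline.

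The 8 libraries of each serum condition were analysed apart. Gencode v44, in its GRCh37 version, supplied symbols and positions and named 55538 of 57820 identifiers. Protein-coding genes with at least 10 counts in all were kept, scaled by TMM and tested with the robust quasi-likelihood pipeline of edgeR over 4 groups, with a prior count of 0.125 and Benjamini-Hochberg adjustment over all genes. SE was derived from the F statistic as |log2 fold change| / sqrt(F). Bounds divide the mean CPM of the higher group by the CPM of 3 counts per library in the group at 0. They make no allowance for counting error in the higher group. All 10 members are reported, and other pathway genes are named only where called in at least 1 of the 8 comparisons, with values for some of these and counts for the rest. The members and lists were chosen with earlier results of these data known. Promoters and their motifs came from RefSeq (GRCh38.p14).

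Alternatives were DESeq2, its size factors in edgeR, other filters and biotypes, a prior count of 2, a fit without robust estimation, limma-trend on log2(TPM + 1), the adjusted p alone, a replicate block, and each library left out. Correlations between the deviations of equally numbered libraries ran from -0.15 to 0.24, so replicate numbers were not treated as pairs. Software comprised edgeR 4.0.16, limma 3.58.1 and DESeq2 1.42.0 under R 4.3.3, and matplotlib 3.10.9, pandas 2.3.3, scipy 1.17.1 and numpy 2.4.6 under Python 3.11.15.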

Additional observations from a re-analysis of the deposited data

Results flagged for a closer look

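Of the 10 genes in each serum condition, 7 values stood out because the change with reporter status differed between the lines by the interaction test of edgeR (MDA-MB-231 minus MDA-MB-436, log2 scale). In low serum these were TLR4 (-3.61), TLR2 (-4.38), TLR1 (-1.77) and TLR6 (-1.24). TLR4 had 3493 to 3864 counts in the 4 MDA-MB-231 libraries and went from 15 to 22 counts to 224 to 283 counts in MDA-MB-436. The value of TLR2 is a fit against 0 counts in MDA-MB-436 7TGP-NEG, and it was -0.70 with a prior count of 2. TLR6 was lower in the reporter-positive subline of MDA-MB-231 and higher in that of MDA-MB-436.

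In standard serum the values were TLR4 (-4.16), TLR1 (-1.86) and TLR3 (1.76). TLR3 went from 63 to 89 counts to 294 to 306 counts in MDA-MB-231 and lay between 269 and 450 counts in MDA-MB-436. TLR1 had 5 to 29 counts in these libraries. Over all genes, 11.7% in low serum and 13.8% in standard serum met the same rule. The causes of these differences were not tested.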

How the results depend on the processing

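Of 1440 values of single members under alternatives, 1373 kept their direction and their side of the threshold, 21 became weaker, 30 stronger (28 of them because the fold threshold was dropped) and 16 reversed. This total is no measure of robustness. Values with the adjusted p alone reuse the main fit and cannot change direction, and many left-out libraries lay outside the groups compared. With the adjusted p alone, the members called were 7 (MDA-MB-231) and 8 (MDA-MB-436) in low serum, 5 and 7 in standard serum, and 9 and 5 for the interactions. With limma-trend on log2(TPM + 1), which compresses low values, 1 member was called in MDA-MB-436 in low serum, 1 for the interaction in low serum and 1 in MDA-MB-436 in standard serum. TPM also moved the median of all genes to -0.13, -0.15 and -0.19 in the low serum comparisons of MDA-MB-231, MDA-MB-436 and the 7TGP-NEG sublines. Leaving out single libraries gave 1 to 3 members in MDA-MB-436 in standard serum, where 1 remained without MDA-MB-436 7TGP-NEG replicate 1, and 3 to 4, 3 to 5 and 2 to 3 in MDA-MB-436 in low serum and the interactions. TLR6 in MDA-MB-436 in low serum was 1.05 without MDA-MB-436 7TGP-POS replicate 2. The TLR2 interaction in low serum was lost without either MDA-MB-436 7TGP-NEG library (adjusted p = 0.0802 and 0.0605).

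Reversed values, with TPM, were TLR4 (-0.0159) and IRAK1 (-0.18) in MDA-MB-231 in low serum, TLR5 (-0.0501) and IRAK2 (-0.17) in MDA-MB-436 in low serum, CD14 (-0.28) and MYD88 (-0.25) between 7TGP-NEG sublines in low serum, and the TLR2 interactions (0.98 and 1.82). The TLR2 interaction in standard serum was 0.76 with a prior count of 2, and MYD88 in MDA-MB-231 in standard serum was -0.0022 with every biotype. Leaving out single libraries gave -0.0148 to 0.0543 for IRAK1 in MDA-MB-231 in low serum, -0.11 to 0.27 for CD14 between 7TGP-NEG sublines, -0.22 to 0.0044 for the TLR3 interaction in low serum and -0.0143 to 0.0565 for MYD88 in MDA-MB-231 in standard serum. Apart from the TLR2 interactions, whose sign depends on the treatment of 0 counts, the cause was not tested.

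With the replicate number as a block, the members called stayed at 1, 3, 6 and 4 (low serum) and 2, 3, 7 and 3 (standard serum) (MDA-MB-231, MDA-MB-436, 7TGP-NEG sublines, interaction), and no call of a member changed. Deviations in MDA-MB-436 in low serum correlated at -0.15, and crossed numbers, added after seeing the data, gave 3 members and 1695 of 16069 genes. Over all genes, TPM called 302, 793 and 1117 in low serum (MDA-MB-231, MDA-MB-436, interaction) against 948, 1694 and 1884, and 522 and 941 in standard serum against 1185 and 1932. Every biotype gave 10397 calls between 7TGP-NEG sublines in low serum against 6732. Depth limits TLR2 and TLR1 in MDA-MB-436, at 0 to 27 counts per library, and TLR4 in MDA-MB-436 7TGP-NEG, at 5 to 22.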

Other observations

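Between the 7TGP-NEG sublines, 8 of the 53 other pathway genes tested were called higher in MDA-MB-231 and 18 lower in low serum, where 20.5% and 21.4% of all genes were called. In standard serum 11 were higher and 16 lower, near the 21.3% and 25.4% of all genes. TLR10, among these 11, was at the floor in both groups. IRF5, a transcription factor downstream of MYD88, had 17 to 22 counts in MDA-MB-231 and 480 to 566 in MDA-MB-436 in low serum, a log2 difference of -4.62 (SE 0.17, edgeR adjusted p = 2.27e-26), and differed by -4.25 in standard serum. The inhibitors IRAK3 (-2.08 and -1.83) and TNFAIP3 (-4.03 and -3.54) were lower in MDA-MB-231 in both serum conditions. The IL-18 receptor gene IL18R1 had 7 to 11 counts in MDA-MB-231 and 270 to 330 in MDA-MB-436 in low serum (log2 difference -4.92, adjusted p = 8.21e-23).

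The response genes IL1B, IL6 and CCL2, which rose in MDA-MB-231 7TGP-POS, were lower in MDA-MB-231 7TGP-NEG than in MDA-MB-436 7TGP-NEG, with log2 differences of -4.29, -4.24 and -6.11 in low serum. The change with reporter status differed between the lines for 7 of 10 response genes in low serum, against 4.72% of all genes called in this direction, and for 6 of 10 in standard serum, against 7.02%. As above, these counts are no test of the list. CXCL8 rose in both lines, with an interaction of 2.25 in low serum (adjusted p = 7.37e-19) and 0.16 in standard serum (adjusted p = 0.244).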
